A study of Homo sapiens with 6 samples.

Results

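Small nucleolar RNA host genes of the SNHG series are long noncoding genes whose introns hold small nucleolar RNAs (snoRNAs), and their levels were followed here in T24 cells after TRIM28 knockdown. T24 is a line from a human bladder carcinoma. Every gene row named SNHG followed by a number was taken, together with GAS5, the growth arrest-specific transcript that belongs to the same class, which gave 31 rows with 30 symbols among 78932 rows. SNHG33 was listed in 2 overlapping rows. EPB41L4A-AS1, a host known by another name, was kept apart. The rule reads gene names and no measured value, although this class of genes was picked with earlier results of these data known. RNA with poly(A) tails was sequenced from 3 cultures that received a negative control siRNA (siNC) and from 3 that received siRNA against TRIM28 (siTRIM28). The labels name the 3 cultures of each group biological replicates, give batch 1 for all 6 and do not say which TRIM28 siRNA or which time after transfection was used, so the data describe 1 line under a transient knockdown. TRIM28, also called KAP1, is a corepressor for KRAB zinc finger proteins and a ligase for SUMO and ubiquitin.

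After splicing of an SNHG transcript, the excised introns are trimmed to snoRNAs, which guide chemical marks on ribosomal RNA. Box C/D snoRNAs (SNORD) guide 2′-O-methylation, box H/ACA snoRNAs (SNORA) guide pseudouridylation, and the related scaRNAs (SCARNA) act on spliceosomal RNA in Cajal bodies. The spliced exons carry little open reading frame, several are known targets of nonsense-mediated decay when translated, and many hosts start at the pyrimidine tract (5′ TOP) that also marks ribosomal protein mRNAs. A gene row in poly(A) RNA measures mainly the spliced host transcript and not the mature snoRNA, which lacks a poly(A) tail.

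The libraries held between 11712623 and 14018052 counts. Levels are given as CPM, counts scaled to the size of the library with TMM factors, and changes as log2 fold changes of siTRIM28 over siNC from edgeR's quasi-likelihood test, called at a Benjamini-Hochberg adjusted p under 0.05. TRIM28 itself lay at 102, 101 and 108 CPM in siNC and at 9.28, 8.11 and 9.21 CPM in siTRIM28. It fell by 3.54 on the log2 scale (SE 0.0723, edgeR adjusted p = 1.03e-10), so the targeted gene was low in the 3 libraries labelled siTRIM28. The epithelial keratins KRT8 and KRT18 stood at 104 and 86.1 CPM in siNC and vimentin (VIM) at 1100 CPM, while EPCAM, CDH1, GATA3 and KRT19 lay under 1 CPM, UPK1B had no count in any library, and the leukocyte genes PTPRC and CD3E were at or near 0. Of the other listed markers, KRT7 stood at 2.84 CPM and KRT5, UPK2, UPK3A, PECAM1, COL3A1, ALB and DES lay under 1 CPM. COL1A1, a fibroblast collagen, was low in both groups, at 0.932 CPM in siNC and 3.28 CPM in siTRIM28, and rose by 1.78 on the log2 scale (edgeR adjusted p = 0.000221). VIM, KRT7 and KRT8 rose by 0.33, 0.56 and 0.14 (edgeR adjusted p = 2.56e-05, 0.0126 and 0.0354), and the part of these shifts in the SNHG values was not tested. Replicate 1 of siTRIM28 stood apart from the other 2, with a chi-square per degree of freedom of 6.25 and 5.65 against them, while these 2 differed from each other by 1.22. In siNC the values were 4.17 and 4.22 for pairs with replicate 3 and 1.08 for replicates 1 and 2. The 1.08 and 1.22 lie close to counting noise alone, so these pairs added little on the spread between cultures. In bulk RNA, fewer cells with a transcript and less of it per cell cannot be told apart.

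SNHG transcripts were unequally abundant. Together the 31 rows held 0.128% to 0.132% of the counts in siNC and 0.119% to 0.138% in siTRIM28. Per kilobase of the deposited gene length, SNHG9 was the most abundant in siNC with 348 CPM per kb, followed by SNHG6 with 55.5, SNHG32 with 47.9, SNHG3 with 21.9, GAS5 with 16.8 and SNHG29 with 16.7 CPM per kb. The row of SNHG32 contains HSPA1B with nearly equal counts, so its place in this order may reflect shared reads. The row of SNHG9 overlaps RPS2 on the opposite strand, and that of SNHG3 lies within RCC1 on the same strand. Strand setting and treatment of shared reads are not given, so their places may reflect shared reads too. GAS5 and SNHG29 lay too close on this scale to be ordered. The lowest of the tested rows was SNHG14, at 0.0709 CPM per kb over its 124307 annotated bases. The deposited length exceeded the span of the row for 5 of the 31 rows, so an order of levels per length is approximate. By reads, 7 rows at 50 CPM or more in siNC (SNHG9, SNHG32, SNHG6, SNHG29, GAS5, SNHG3 and SNHG5) carried between 88.1% and 88.9% of all SNHG counts there and between 83.4% and 85.8% in siTRIM28.

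**Figure D1:**
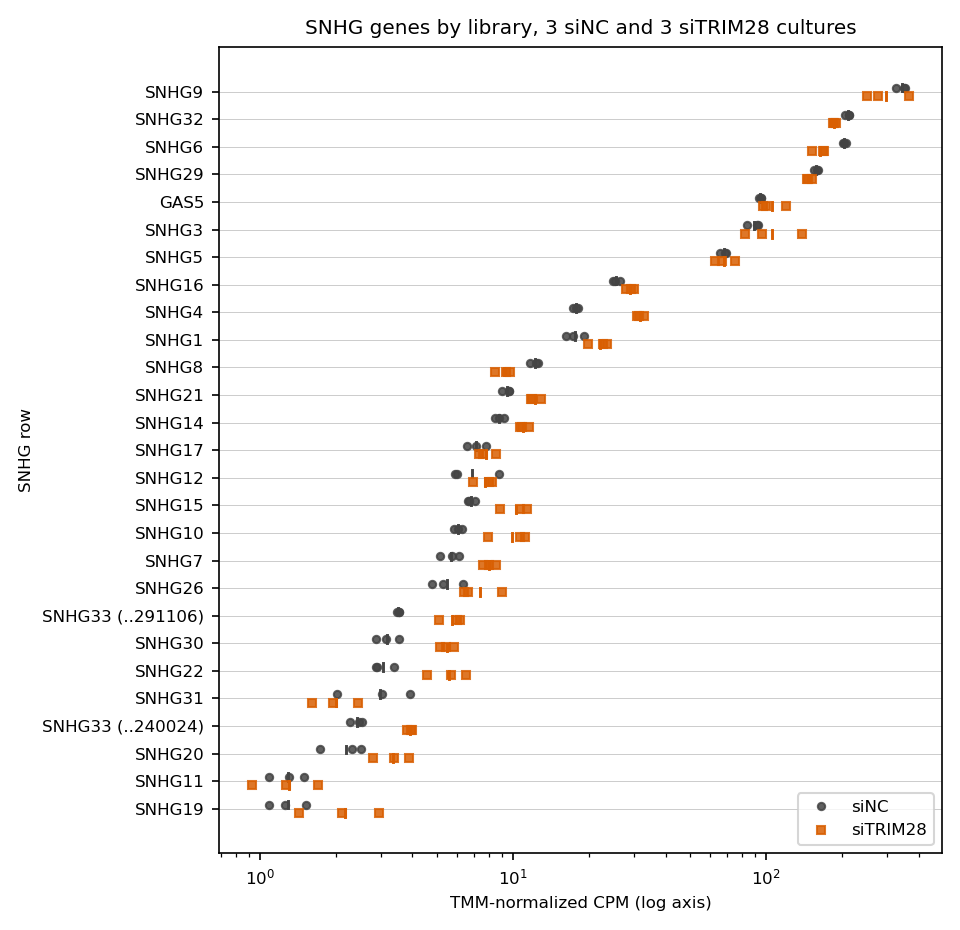
Level of each tested SNHG row in every library, as TMM-normalized CPM on a log axis, ordered by the siNC mean; points are libraries (3 siNC, 3 siTRIM28) and short vertical bars are group means. The siTRIM28 points lie to the right of siNC for most rows under 50 CPM and to the left for SNHG32, SNHG6, SNHG29 and SNHG8.

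The starts of these genes carry letters that the selection by name did not use. RefSeq windows of 60 bases, 30 before and 30 from the annotated start, were present for 26 of the 30 symbols, and none was printed or searched for SNHG15, SNHG25, SNHG6 and SNHG9. The letters CTTTT occurred on the transcribed strand in 8 of the 26 windows (30.8%), in 6.7% of all 35116 promoter windows and in 25.0% of 68 windows of ribosomal protein genes. On the opposite strand the same letters occurred in 7.7% of SNHG windows and in 6.9% of all windows. A C at the first transcribed base followed by at least 4 pyrimidines was found in 6 of 26 SNHG windows (23.1%), in 4.1% of all windows and in 63.2% of the ribosomal protein windows. The SNHG and ribosomal protein shares use a single window per symbol, while the share of all windows uses every window of the reference. Some windows count for both features. The 6 windows below are shown because they hold such a run at the start or, for SNHG33, CTTTT just before it, and because their genes changed in different ways. They are read 5′ to 3′ on the gene's strand in GRCh38.p14, base 31 is the annotated start, and capitals mark CTTTT or the pyrimidine run that begins at the start. They lie at chr5:139274071-139274130 on the plus strand (SNHG4), chr16:2155329-2155388 on the minus strand (SNHG19), chr3:183447578-183447637 on the plus strand (SNHG33), chr1:28581844-28581903 on the minus strand (SNHG12), chr6:85678704-85678763 on the minus strand (SNHG5) and chr6:31834886-31834945 on the plus strand (SNHG32).
SNHG4: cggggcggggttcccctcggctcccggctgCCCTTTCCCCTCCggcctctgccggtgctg
SNHG19: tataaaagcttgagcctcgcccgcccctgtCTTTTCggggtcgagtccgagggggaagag
SNHG33: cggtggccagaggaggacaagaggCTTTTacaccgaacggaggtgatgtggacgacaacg
SNHG12: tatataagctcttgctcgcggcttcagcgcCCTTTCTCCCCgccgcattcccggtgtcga
SNHG5: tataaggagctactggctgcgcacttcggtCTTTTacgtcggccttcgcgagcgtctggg
SNHG32: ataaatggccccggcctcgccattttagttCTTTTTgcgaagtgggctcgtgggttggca

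Among these 6 genes SNHG4 and SNHG33 rose, SNHG32 fell, and SNHG19, SNHG12 and SNHG5 did not pass the test. Of all genes tested, 21.3% were higher and 20.5% lower. Over all tested symbols with a window, the 8 with CTTTT had 3 higher and 1 lower with a median log2 fold change of 0.29, and the 15 without it had 8 higher and 1 lower with a median of 0.32. The 5 with the pyrimidine run had 1 higher and 1 lower (median 0.17), and the 18 without it 10 higher and 1 lower (median 0.32). RefSeq and the deposited table place many starts further apart than the 60 bases of the window. The distance was 154975 bases for SNHG14, 1927 for SNHG20, 759 for SNHG31, 598 for SNHG7 and 163 for GAS5. Such windows may not hold the start of the deposited row, so the shares and medians by motif or run are approximate. Among the 6 windows shown, the starts differ by 12822 bases for SNHG32 and 1110 bases for SNHG12. They differ by 39 bases for SNHG33, 3 bases for SNHG5, 1 base for SNHG4 and 0 bases for SNHG19.

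After TRIM28 knockdown more SNHG rows rose than fell. Of the 31 rows, 27 reached 10 counts in 3 or more libraries and were tested, and 13 of them (48.1%) were higher in siTRIM28, beside 21.3% of all 18474 genes tested. These 13 rows carry 12 symbols, because both SNHG33 rows rose. Another 3 of 27 (11.1%) were lower, beside 20.5% of all genes, and 11 did not pass the threshold. The 3 siTRIM28 libraries all lay above the 3 siNC libraries for 15 of 27 rows, beside 26.3% of all genes, and all below for 4 of 27, beside 25.7% of all genes. The median log2 fold change was 0.32 over the 27 rows and 0.02 over all genes, and 20 of the 27 were positive. In single siTRIM28 libraries the median log2 ratio of the SNHG rows to the siNC mean was 0.28, 0.23 and 0.30. An exact permutation test of 3 against 3 libraries cannot give a two-sided p under 0.1, the value reached by every row without overlap.

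**Figure D2:**
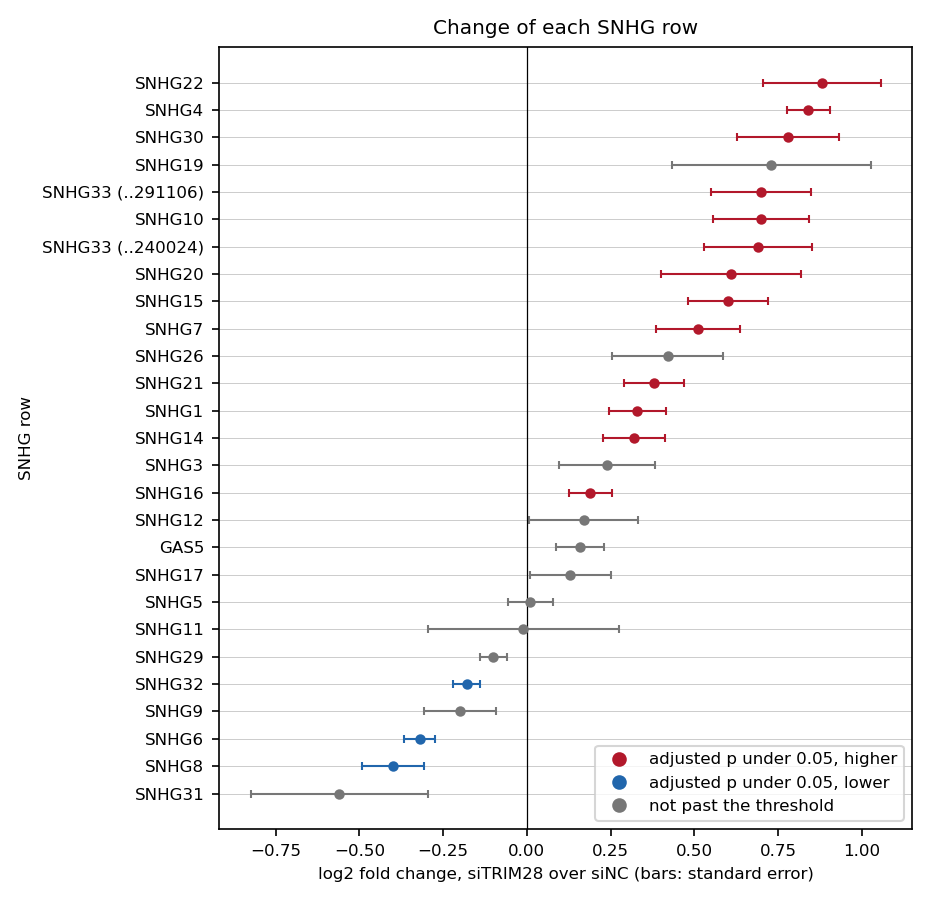
Log2 fold change of siTRIM28 over siNC for each of the 27 tested SNHG rows, from edgeR; bars are standard errors, red and blue points passed an adjusted p of 0.05 and grey points did not. The 13 red rows range from 0.19 for SNHG16 to 0.88 for SNHG22, and the 3 blue rows from -0.40 for SNHG8 to -0.18 for SNHG32.

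All 4 hosts of scaRNAs rose, beside 21.3% of all genes, with a median log2 fold change of 0.66. SNHG22, host of SCARNA17, lay at 2.88, 2.89 and 3.37 CPM in siNC and at 6.5, 4.56 and 5.66 CPM in siTRIM28. The groups did not overlap, and its log2 fold change of 0.88 ± 0.176 (SE, edgeR adjusted p = 0.00178) was the largest among the tested SNHG rows. SNHG10, host of SCARNA13, the guide for the U2 and U5 spliceosomal RNAs, lay at 5.83, 6.07 and 6.27 CPM in siNC and at 7.93, 11.1 and 10.6 CPM in siTRIM28, a log2 fold change of 0.70 ± 0.143 (edgeR adjusted p = 0.00201). Its siTRIM28 replicate 1 was the lowest of the 3 and still above every control. SNHG21, host of SCARNA15, moved from a mean of 9.42 ± 0.361 (SD, n = 3) to 12.2 ± 0.572 CPM, a log2 fold change of 0.38 with an edgeR adjusted p of 0.00503. SNHG20, host of SCARNA16, rose from 2.18 ± 0.402 to 3.35 ± 0.55 CPM with a log2 fold change of 0.61 and an adjusted p of 0.0348 in edgeR. SNHG20 rests on 24 to 46 counts per library, and its edgeR adjusted p was 0.0711, 0.135, 0.128 and 0.0843 without siNC replicate 1, siNC replicate 2, siTRIM28 replicate 2 and siTRIM28 replicate 3.

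Hosts of box H/ACA snoRNAs gave 5 rises (45.5%) and 1 fall (9.09%) among 11 rows, beside 21.3% and 20.5% of all genes, with a median log2 fold change of 0.24. SNHG4, host of SNORA74A and SNORA74D, had the smallest adjusted p of all SNHG rows. It lay at 17.3, 18 and 17.7 CPM in siNC and at 30.9, 32.9 and 31.5 CPM in siTRIM28, so that libraries of a group differed little beside the distance between groups. Its log2 fold change was 0.84 ± 0.0639 (SE, edgeR adjusted p = 1.16e-06), a 1.8-fold higher level. SNHG33 holds SNORA63D and SNORA63E, and its 2 rows on chromosome 3 overlap on the same strand, so they may count the same reads and are not independent. The longer row (ENSG00000291106) lay at 3.53, 3.47 and 3.53 CPM in siNC and at 5.07, 6.17 and 6.0 CPM in siTRIM28, with a log2 fold change of 0.70. The shorter (ENSG00000240024) went from 2.52, 2.46 and 2.27 to 3.93, 3.97 and 3.80 CPM, with a log2 fold change of 0.69. Neither row overlapped between groups, with edgeR adjusted p values of 0.0026 and 0.00509. SNHG15, host of SNORA9, lay at 7.06, 6.65 and 6.66 CPM in siNC and at 11.3, 10.6 and 8.87 CPM in siTRIM28. All 3 knockdown libraries were above the controls, at a log2 fold change of 0.60 ± 0.119 (edgeR adjusted p = 0.00166). SNHG7, host of SNORA17A and SNORA17B, rose from 5.66 ± 0.499 to 8.04 ± 0.466 CPM, by 0.51 on the log2 scale with an edgeR adjusted p of 0.00646.

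Among hosts of box C/D snoRNAs, 4 of 10 tested rows rose (40%) and 2 fell (20%), beside 21.3% and 20.5% of all genes, with a median log2 fold change of 0.25. SNHG30, host of SNORD7, lay at 2.88, 3.54 and 3.14 CPM in siNC and at 5.43, 5.15 and 5.83 CPM in siTRIM28, without overlap, at a log2 fold change of 0.78 ± 0.153 (edgeR adjusted p = 0.00163). SNHG1, which holds 8 box C/D snoRNAs from SNORD22 to SNORD31, lay at 17.3, 16.2 and 19.1 CPM and then at 22.7, 19.8 and 23.5 CPM. The lowest knockdown library exceeded the highest control by less than 1 CPM, and the log2 fold change was 0.33 ± 0.086 (edgeR adjusted p = 0.00875). SNHG14, the imprinted transcript across the Prader-Willi and Angelman region with 83 annotated SNORD copies, rose from 8.81 ± 0.353 to 11.0 ± 0.447 CPM, by 0.32 on the log2 scale. Its edgeR adjusted p of 0.0171 became 0.0662, 0.0669 and 0.0756 without siNC replicate 1, siNC replicate 3 and siTRIM28 replicate 2. SNHG16, host of SNORD1A, SNORD1B and SNORD1C, gave the smallest rise, from 25.5 ± 0.935 to 29.0 ± 1.0 CPM, at a log2 fold change of 0.19 (edgeR adjusted p = 0.0356). That call was lost without siNC replicate 1 (edgeR adjusted p = 0.118), siNC replicate 3 (0.118), siTRIM28 replicate 2 (0.11) or siTRIM28 replicate 3 (0.0878).

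The 3 rows that fell were SNHG8, SNHG6 and SNHG32. SNHG8, host of the H/ACA guide SNORA24, lay at 12.3, 11.7 and 12.5 CPM in siNC and at 9.36, 8.45 and 9.71 CPM in siTRIM28. The groups were separate, and SNHG8 fell by 0.40 on the log2 scale (SE 0.0919, edgeR adjusted p = 0.00404). SNHG6, host of the C/D guide SNORD87, lay at 201, 202 and 207 CPM in siNC and at 152, 169 and 167 CPM in siTRIM28. Here replicate 1 was the lowest knockdown library, and the log2 fold change was -0.32 ± 0.0472 (edgeR adjusted p = 0.000209). SNHG32, host of SNORD48 and SNORD52, lay at 205, 213 and 212 CPM and then at 183, 188 and 185 CPM. SNHG32 fell by 0.18 on the log2 scale (SE 0.0393, edgeR adjusted p = 0.00332), the smallest of the 3 falls, with little spread within either group.

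The row of SNHG32 also has a limit of its own. In the deposited table it spans 31822094 to 31839766 on chromosome 6 and contains the whole of HSPA1B, an inducible HSP70 gene on the same strand. SNHG32 had 2848, 2945, 2709, 2568, 2228 and 2193 counts in siNC replicates 1 to 3 and siTRIM28 replicates 1 to 3. HSPA1B had 2849, 2982, 2802, 2539, 2240 and 2198 counts in the same order. The 2 rows were thus nearly equal in every library, and HSPA1B fell by 0.20 on the log2 scale (edgeR adjusted p = 0.00243). How the counting treated reads shared by 2 rows is not given in the sources used here, so the fall of SNHG32 cannot be told apart from that of HSPA1B.

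Rows that did not pass the threshold fall into 3 kinds. SNHG19, SNHG26 and SNHG31 had large estimates with wide errors: SNHG19, host of SNORD60, lay at 1.28 ± 0.22 CPM in siNC and 2.17 ± 0.765 in siTRIM28 with a log2 fold change of 0.73 ± 0.297 (edgeR adjusted p = 0.0696). SNHG26, host of SNORD93, had a log2 fold change of 0.42 (edgeR adjusted p = 0.0622) with groups that just did not overlap, 6.34 CPM being the highest control and 6.42 CPM the lowest knockdown library. SNHG31 had 2.99 ± 0.949 CPM in siNC, 1.99 ± 0.414 CPM in siTRIM28 and a log2 fold change of -0.56 (edgeR adjusted p = 0.113). SNHG12, SNHG17 and SNHG11 were low and overlapped between groups, at log2 fold changes of 0.17 ± 0.163, 0.13 ± 0.122 and -0.01 ± 0.286. Leaving out 1 library moved these estimates widely. The log2 fold change ranged from 0.43 to 0.98 for SNHG19 (without siTRIM28 replicate 2 and replicate 1) and from 0.25 to 0.54 for SNHG26 (without siTRIM28 replicate 2 and siNC replicate 1). For SNHG31 it ranged from -0.78 to -0.33 (without siNC replicate 2 and replicate 3). For SNHG12 it ranged from 0.07 to 0.38 (without siNC replicate 1 and replicate 3) and for SNHG17 from 0.06 to 0.19 (without siTRIM28 replicate 1 and siNC replicate 1). SNHG12 holds both classes of snoRNA, whereas SNHG17 and SNHG11, neighbours on chromosome 20, hold H/ACA guides of the SNORA71 group among others. The remaining 5, SNHG3, GAS5, SNHG5, SNHG29 and SNHG9, were abundant, and for several of them siTRIM28 replicate 1 decided the value.

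SNHG3, host of SNORA73A and SNORA73B, the U17 snoRNAs of ribosomal RNA cleavage, lay at 91.7, 92.7 and 83.6 CPM in siNC and at 138, 82.1 and 96.2 CPM in siTRIM28. Replicate 1 was far above every other library, and the other 2 lay on both sides of the controls. The log2 fold change of SNHG3 was 0.24 ± 0.144 (edgeR adjusted p = 0.201), and without siTRIM28 replicate 1 it was -0.0029 (edgeR adjusted p = 0.976). Without siTRIM28 replicate 2 the edgeR adjusted p was 0.0249. RCC1, a same-strand gene whose row contains that of SNHG3 and starts 37 bases from it, had the same order of knockdown libraries. It lay at 157, 90.4 and 107 CPM in siTRIM28, with a log2 fold change of -0.34. These rows may share reads, so the common order of libraries is not independent of the counting. SNHG9, host of SNORA78 beside the ribosomal protein gene RPS2, lay at 351, 353 and 327 CPM in siNC and at 367, 250 and 277 CPM in siTRIM28. With all libraries its log2 fold change was -0.20 ± 0.107 (edgeR adjusted p = 0.154). Without siTRIM28 replicate 1, whose level was the highest of all 6, it was -0.38 (edgeR adjusted p = 4.98e-07), and without siTRIM28 replicate 2 it was -0.10 (edgeR adjusted p = 0.424). The fit without siTRIM28 replicate 1 rests on siTRIM28 replicates 2 and 3, which differed little beyond counting noise. In another fit siNC replicates 1 and 2 were summed, as were siTRIM28 replicates 2 and 3. There SNHG9 had a log2 fold change of -0.12 (edgeR adjusted p = 0.506).

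GAS5, whose introns hold 10 SNORDs and 1 SNORA and whose exons are known as a decoy for the glucocorticoid receptor, lay at 95, 95.3 and 93.8 CPM in siNC. In siTRIM28 it lay at 120, 97.1 and 100 CPM, all above the controls, with replicate 1 again the highest. Its log2 fold change was 0.16 ± 0.0716 (edgeR adjusted p = 0.0934), and it passed the threshold without siTRIM28 replicate 2 (edgeR adjusted p = 0.0397). Without siTRIM28 replicate 1 the log2 fold change of GAS5 was 0.06 (edgeR adjusted p = 0.291). SNHG29, host of SNORD49A, SNORD49B and SNORD65, lay at 158, 160 and 155 CPM and then at 151, 145 and 146 CPM. These groups did not overlap, at a log2 fold change of -0.10 ± 0.041 (edgeR adjusted p = 0.078), and without siTRIM28 replicate 1 the edgeR adjusted p was 0.0165. SNHG5, host of SNORD50A and SNORD50B, overlapped between groups with 67.8 ± 2.12 CPM in siNC and 68.4 ± 6.18 CPM in siTRIM28. A same-strand row that overlaps SNHG5, ENSG00000271793, starts 3 bases from it and had 702 CPM in siNC, with a log2 fold change of 0.03. Reads of SNHG5 and of ENSG00000271793 may not be told apart.

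**Figure D3:**
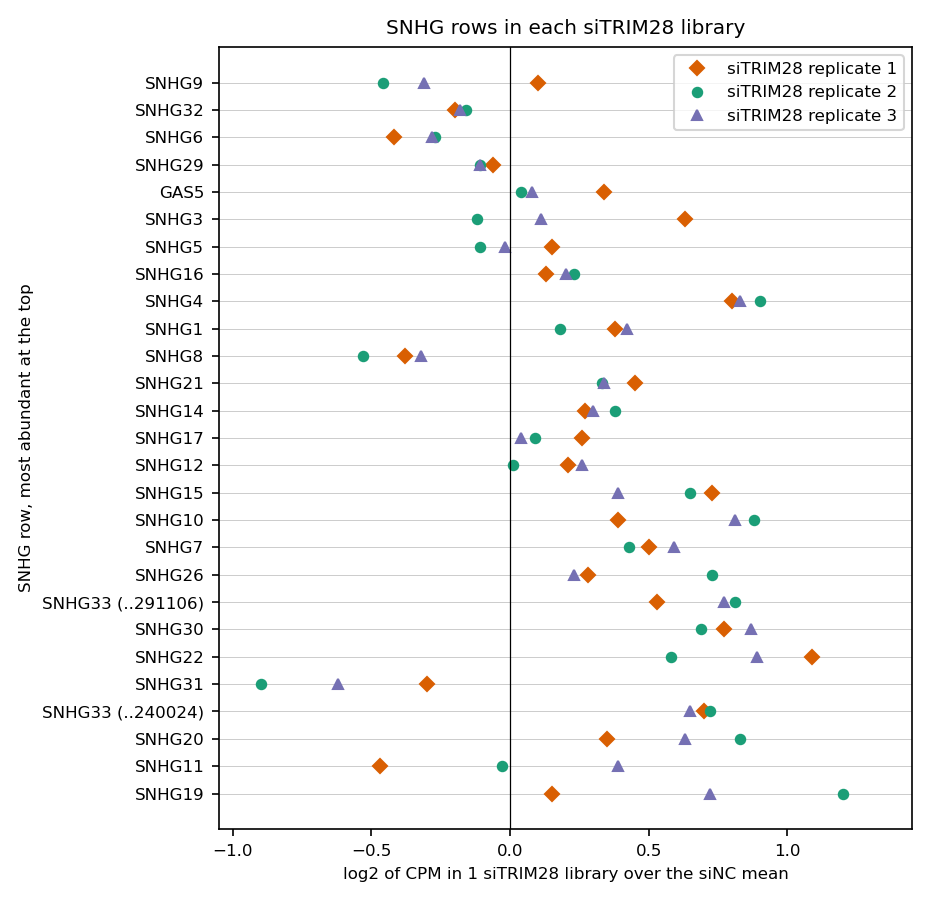
Log2 ratio of CPM in each siTRIM28 library to the siNC mean for the 27 tested SNHG rows, the most abundant at the top; symbols mark the 3 replicates. Replicate 1 lies to the right of the other 2 for SNHG9, GAS5, SNHG3, SNHG5 and SNHG29, and the 3 replicates share their side of 0 for most other rows.

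Replicate 1 of siTRIM28 was above both other knockdown libraries for 10 of the 27 SNHG rows (37.0%), beside 37.7% of all genes tested. Among the 7 rows at 50 CPM or more it was highest for 5 (71.4%). Without this library the edgeR test called 15 rows higher and 6 lower, the added rows being SNHG19 (edgeR adjusted p = 0.00677) and SNHG26 (0.0293) among the rises and SNHG9, SNHG29 and SNHG31 (0.0442) among the falls. SNHG31 also passed without siNC replicate 2 (edgeR adjusted p = 0.03). Without siTRIM28 replicate 1 the knockdown group is replicates 2 and 3, whose difference was near counting noise. With the close pairs summed, SNHG19, SNHG26, SNHG9, SNHG29 and SNHG31 did not pass (edgeR adjusted p = 0.146, 0.0983, 0.506, 0.286 and 0.143). Leaving out any single library, SNHG22, SNHG4, SNHG30, SNHG33, SNHG10, SNHG15, SNHG7, SNHG21, SNHG1, SNHG32, SNHG6 and SNHG8 stayed past the threshold on the same side in edgeR.

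In the test of all 6 libraries the rises were among the less abundant rows. Of the 7 rows at 50 CPM or more in siNC, 0 rose by edgeR, DESeq2 or limma-voom and 2 fell by edgeR, with a median log2 fold change of -0.10. At an unadjusted p under 0.05, 1 of the 7 was higher in edgeR and in limma-voom and 0 in DESeq2. In other edgeR fits GAS5 passed as higher with upper-quartile factors (adjusted p = 0.0428) and without siTRIM28 replicate 2 (0.0397), and SNHG3 with no count filter (0.000667) and without siTRIM28 replicate 2 (0.0249). Among all genes at that level 24.2% rose and 35.9% fell, with a median of -0.05. Of the 20 rows under 50 CPM, 13 rose and 1 fell, with a median of 0.46, beside 20.7% and 16.8% and a median of 0.04 among all tested genes at that level. The summed level of the 20 rows was 148, 146 and 153 CPM in siNC and 193, 197 and 197 CPM in siTRIM28. For the 7 abundant rows the sum was 1170, 1182 and 1147 CPM in siNC and 1187, 994 and 1039 CPM in siTRIM28. The sum of the lower rows thus separated the groups, and that of the abundant rows overlapped through replicate 1. Over the 27 rows, Spearman's rho between siNC level and log2 fold change was -0.53, beside -0.21 over all 18474 genes. These are descriptions across genes of the same 6 libraries, and the siNC level also enters the fold change. The cut at 50 CPM was not among the planned results. Rows on both sides of it may share reads with overlapping rows. Among the abundant rows these include SNHG32, SNHG9, SNHG3 and SNHG5, and among the others SNHG4, SNHG20 and SNHG33.

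**Figure D4:**
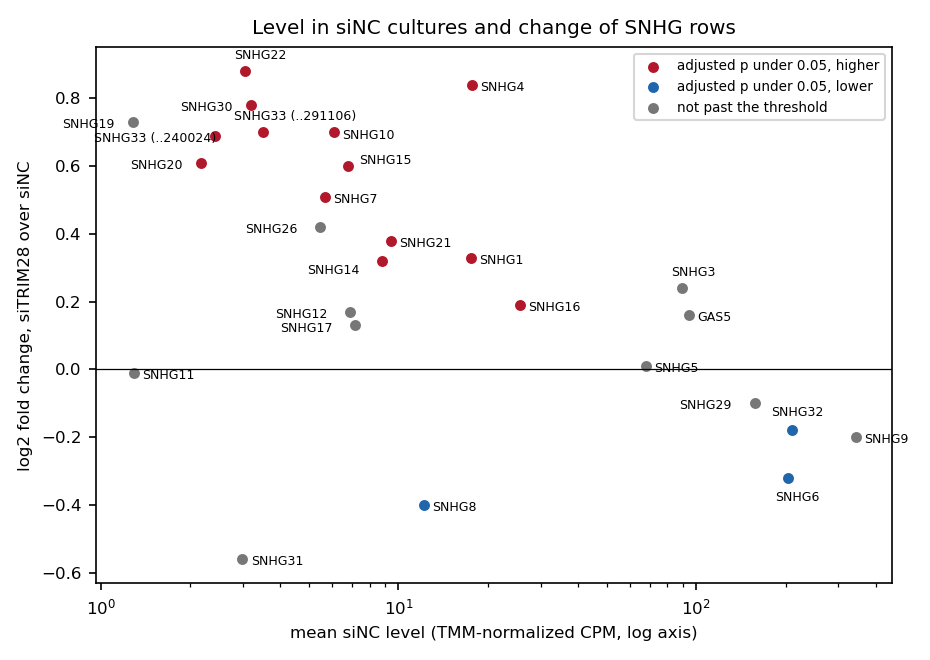
Log2 fold change of siTRIM28 over siNC against the mean siNC level (TMM-normalized CPM, log axis) for the 27 tested SNHG rows; red and blue mark rows past an adjusted p of 0.05. Red points lie under 50 CPM, and the 7 points at 50 CPM or more hold 2 blue and 5 grey rows.

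The 4 rows with too few counts for the test were SNHG18, SNHG25, SNHG27 and SNHG28. SNHG18 had 0 counts in all 6 libraries. SNHG25, host of SNORD104, had 6, 9 and 10 counts in siNC and 21, 8 and 9 in siTRIM28. SNHG27 had 8, 16 and 5 counts and then 8, 9 and 9. SNHG28 had 1, 3 and 3 counts in siNC and 7, 4 and 5 in siTRIM28, the only row of the 4 whose groups did not overlap, at a level where counting noise is large. No change was detectable at this depth for these genes.

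Genes that overlap an SNHG row, or start within 1000 bases of it on the other strand, rose and fell at shares near those of all genes. Of 36 such genes that were tested, 8 rose (22.2%) and 7 fell (19.4%), beside 21.3% and 20.5% of all genes, with a median log2 fold change of 0.08. Without siNC replicate 2 or siTRIM28 replicate 1 the rises numbered 5. SNHG4 rose, whereas MATR3, a nuclear matrix protein gene that overlaps it on the same strand and starts within 1000 bases, was at 758 ± 5.64 CPM in siNC and 757 ± 38.9 CPM in siTRIM28. The SNHG4 row lies wholly within the row of MATR3, so their reads may not be told apart. SIL1, on the opposite strand of SNHG4, fell by 0.82 on the log2 scale, from 95.9 to 54.3 CPM (edgeR adjusted p = 2.12e-07). SNHG22 lies opposite MYO5B, a myosin motor gene, which rose by 1.01 on the log2 scale from 5.87 to 11.8 CPM (edgeR adjusted p = 5.23e-05), and opposite ENSG00000266997, which rose by 0.28 (edgeR adjusted p = 0.0459). ACAA2, whose start is within 1000 bases of that of SNHG22, had a log2 fold change of 0.07 (edgeR adjusted p = 0.439).

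SNHG1 lies head to head with SLC3A2, the heavy chain of amino acid transporters, which lay at 41.2, 41.2 and 39.4 CPM in siNC and at 72.1, 47.7 and 49.7 CPM in siTRIM28. SLC3A2 had its highest value in replicate 1, SNHG1 did not, and the log2 fold change of SLC3A2 was 0.48 (edgeR adjusted p = 0.0103). STX5-DT, on the opposite strand of SNHG1 too, rose by 0.33 (edgeR adjusted p = 0.0192). SNHG20 overlaps SEC14L1 on the same strand, and SEC14L1 rose by 0.51 from 46.2 to 66.0 CPM (edgeR adjusted p = 3.59e-05), at a level far above that of SNHG20 in reads. SNHG16 had JMJD6, a lysyl hydroxylase gene, with a rise of 0.88 and MXRA7 with a log2 fold change of -0.35 on the opposite strand. SNHG14 is antisense to UBE3A, the ubiquitin ligase of Angelman syndrome. UBE3A went from 74.6 ± 3.66 to 65.7 ± 3.82 CPM, at a log2 fold change of -0.18 (edgeR adjusted p = 0.0299), while SNHG14 rose. RPS2, opposite SNHG9, fell by 0.23 (edgeR adjusted p = 0.00103).

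Other neighbours of rows that passed the threshold did not pass it themselves. Their log2 fold changes were 0.05 for GLRX5 beside SNHG10, 0.61 for FSD2 beside SNHG21, 0.42 for DIPK1B and 1.00 for ENSG00000281808 beside SNHG7. For SNHG14 they were 0.56 for PWAR5 and 0.04 for ENSG00000214265, for SNHG16 0.12 for ENSG00000284526 and 0.25 for ENSG00000267546, and for SNHG6 0.09 for MCMDC2 and -0.18 for ENSG00000306789. The library kit kept strand, but whether the counting used it is not given in the sources used here, so reads of opposite-strand partners may not be told apart. The opposite directions of SNHG4 and SIL1, of SNHG14 and UBE3A and of SNHG16 and MXRA7 were measured on such pairs. The treatment of shared reads is not given either. Overlapping same-strand partners, such as MATR3 of SNHG4, SEC14L1 of SNHG20 and RCC1 of SNHG3, may therefore share reads too.

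**Figure D5:**
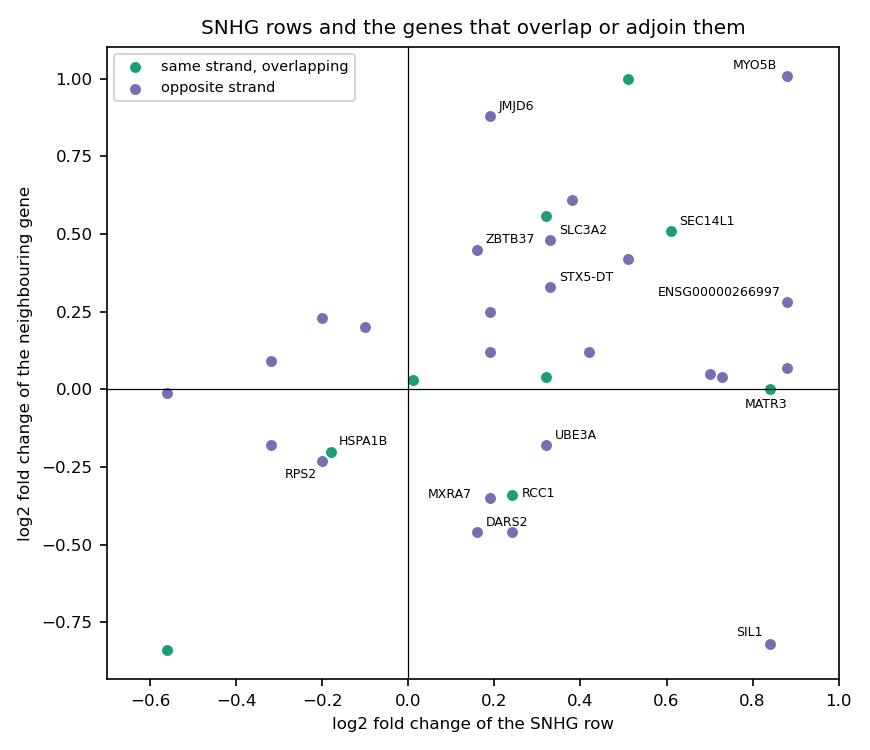
Log2 fold change of each tested gene that overlaps or adjoins a tested SNHG row, against that of the SNHG row; green points are on the same strand and purple points on the opposite strand, and names mark neighbours past an adjusted p of 0.05 along with MATR3 and RCC1. Points lie in all 4 quadrants, with SIL1 at the lower right and MYO5B at the upper right.

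Of 136 snoRNA and scaRNA rows inside SNHG genes, 81 had no count and 4 had enough counts for the test. Mature snoRNAs lack a poly(A) tail and are largely left out by the selection. SNORA17A in SNHG7 had 11, 6 and 7 counts in siNC and 14, 21 and 11 in siTRIM28, a log2 fold change of 1.03 (edgeR adjusted p = 0.0416). ENSG00000281808, listed above beside SNHG7, covers the same bases but 1 with 11, 6, 7, 13, 21 and 11 counts and did not pass (edgeR adjusted p = 0.0514), so the 2 rows are not independent. SNORD49B in SNHG29 had 66, 61 and 56 counts and then 41, 41 and 41, a log2 fold change of -0.47 (edgeR adjusted p = 0.0307). SNORD22 in SNHG1 and SNORA61 in SNHG12 had log2 fold changes of 0.57 and 0.25 that did not pass the threshold (edgeR adjusted p = 0.139 and 0.564). Reads of the mature snoRNA and of a host precursor cannot be told apart in these rows.

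Among other genes that hold snoRNAs, falls outnumbered rises. Of 195 tested hosts outside the SNHG series, 26 rose (13.3%) and 74 fell (37.9%), beside 21.3% and 20.5% of all genes, with a median log2 fold change of -0.10. Many of these hosts are abundant, and among all genes at 50 CPM or more in siNC 24.2% rose and 35.9% fell. Among all tested genes under 50 CPM 20.7% rose and 16.8% fell. The hosts lie on both sides of that level and were not split by it. The part of the level in their falls was not tested. The 27 ribosomal protein hosts had 15 falls (55.6%, beside 35.9% of all genes at 50 CPM or more) at a median of -0.18 and 0 rises by edgeR, DESeq2 or limma-voom, also at an unadjusted p under 0.05. Of these falls, that of RPL10 had the smallest adjusted p, by 0.99 on the log2 scale from 209 to 106 CPM (edgeR adjusted p = 3.99e-08). The 27 were taken by RPL or RPS names with a number. RPSA, a ribosomal protein host without one, was counted with the remaining hosts and fell by 0.32 (edgeR adjusted p = 5.23e-05). NCL, which encodes nucleolin, fell by 0.74, HSPA9, a mitochondrial HSP70, by 0.67 and RASSF3 by 1.52, whereas CKAP5, a microtubule polymerase gene, rose by 0.64 and CCAR1 by 0.40. ZFAS1, DANCR and EPB41L4A-AS1, long noncoding hosts listed by name, had log2 fold changes of -0.06, 0.05 and 0.09, and 0 of the 3 passed in edgeR (adjusted p = 0.476, 0.838 and 0.432), DESeq2 or limma-voom, also at an unadjusted p under 0.05. Other rows with noncoding names among these hosts did pass, such as TMEM161B-DT, which rose by 0.69 (edgeR adjusted p = 6.91e-05), and MIR31HG, which rose by 0.91 (edgeR adjusted p = 0.00386). Rows among the other hosts are not all independent. RCC1, SEC14L1 and ENSG00000271793 overlap SNHG3, SNHG20 and SNHG5 on the same strand. Some overlap each other, such as RPL17 and RPL17-C18orf32 or DDX39B and ATP6V1G2-DDX39B, and may count the same reads. The difference between SNHG rows and other hosts was not tested, and neither was that between any of these lists and all genes.

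Among proteins that build and carry snoRNPs, falls outnumbered rises. Of 19 listed genes, 10 fell (52.6%) and 3 rose (15.8%), beside 20.5% and 21.3% of all genes, with a median log2 fold change of -0.24. Many of them are abundant, and among all genes at 50 CPM or more in siNC 35.9% fell and 24.2% rose. Others lay under 50 CPM, where 16.8% of all tested genes fell and 20.7% rose. Of those, NAF1, SNU13, NUFIP1, SHQ1 and GAR1 fell, and ZNHIT3 and NOP10 did not pass. The part of the level in these falls was not tested. NOP56, a core C/D protein, fell by 0.34 from 319 ± 3.02 to 253 ± 1.73 CPM (edgeR adjusted p = 2.15e-05), and NHP2, a core H/ACA protein, fell by 0.47 (edgeR adjusted p = 5.11e-05). The assembly factors RUVBL1 and NUFIP1 fell by 0.29 and 0.42 on the log2 scale. DKC1, the pseudouridine synthase, rose by 0.18 from 519 ± 11.6 to 589 ± 36.8 CPM (edgeR adjusted p = 0.00753), PIH1D1 by 0.28 and RUVBL2 by 0.19, although the groups of RUVBL2 overlapped. Without siNC replicate 1 the rises numbered 1.

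Factors of nonsense-mediated decay, the pathway known to degrade several SNHG transcripts, moved in both directions. Of 20 listed genes, 6 rose (30%) and 7 fell (35.0%), beside 21.3% and 20.5% of all genes, with a median log2 fold change of 0.08. Many of these are abundant too, and 24.2% of all genes at 50 CPM or more in siNC rose and 35.9% fell. Others lay under 50 CPM, where 20.7% of all tested genes rose and 16.8% fell. PNRC2, SMG9, SMG1 and the exonuclease XRN1 rose by 0.44, 0.41, 0.29 and 0.26 on the log2 scale (edgeR adjusted p = 0.000174, 0.0042, 0.00212 and 0.00531). RNPS1, SMG6, MAGOH and UPF3A fell by 0.44, 0.33, 0.31 and 0.23. UPF1, the central helicase, had 54.1 ± 2.96 CPM in siNC and 60.4 ± 2.04 CPM in siTRIM28, a log2 fold change of 0.16 (edgeR adjusted p = 0.0541). The number of falls was 3 without siNC replicate 1, siNC replicate 2 or siTRIM28 replicate 3 and 4 without siTRIM28 replicate 2. The part of these factors in the SNHG values was not tested.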

How the data were processed

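Poly(A) RNA of 3 siNC and 3 siTRIM28 cultures of T24 cells was sequenced. The deposited table holds unnormalized read counts for 78932 gene rows on GRCh38, and the submitters' processing notes name fastp 0.23.1, STAR 2.7.6a and featureCounts. The annotation release, the strand setting, the treatment of shared reads and duplicate removal are not given in the sources used here. A second table, with the authors' RPKM values for their differentially expressed genes, was not used. Groups came from the treatment label.

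TMM factors and edgeR 4.0.16 (glmQLFit, glmQLFTest; R 4.3.3) were applied to the 18474 genes that reached 10 counts in 3 or more libraries, with no covariate. Adjusted p-values (Benjamini-Hochberg) cover all of these genes, with a threshold of 0.05. The common biological coefficient of variation was 0.0733. Standard errors were derived from the F statistic as the absolute log2 change over its square root. Alternatives were scaling by RLE, by the upper quartile or by total counts, limma-voom 3.58.1, DESeq2 1.42.0, other count filters, a replicate block, an adjusted p of 0.01, each library left out, and the 2 close pairs of libraries summed (siNC 1 and 2, siTRIM28 2 and 3).

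Replicate numbers did not pair the libraries: the deviations from the group means of same-numbered libraries correlated at 0.05, -0.01 and 0.04. The SNHG genes and the lists (other hosts by position, snoRNP proteins, decay factors, neighbours, cell markers) were chosen with earlier results of these data known. Named genes are all SNHG genes, TRIM28, up to 4 genes of each list in each direction by adjusted p, and neighbours of SNHG genes that passed. UPF1, RCC1, ENSG00000271793, RPS2, TMEM161B-DT and MIR31HG were named after their values were seen. SnoRNAs in each host (either strand) and promoter windows came from RefSeq (GRCh38.p14), in which 30 of 30 symbols matched. Motifs were searched by exact letters. Some listed marker genes are not reported here.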

Additional observations from a re-analysis of the deposited data

How the results depend on the processing

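The number of SNHG rows called higher was 13 and ranged from 9 (DESeq2) to 15 over the alternatives, and the number called lower was 3 and reached 6 without siTRIM28 replicate 1. Over fits that left out 1 library the rises ranged from 10 to 15 and the falls from 3 to 6. The median log2 fold change of the SNHG rows stayed between 0.27 and 0.35 and that of TRIM28 between -3.58 and -3.49. With DESeq2, SNHG20, SNHG14, SNHG16 and SNHG21 (adjusted p = 0.0504) did not pass. With the 2 close pairs of libraries summed, 10 SNHG rows were higher and 3 lower in edgeR. In that fit SNHG20, SNHG14 and SNHG16 did not pass (edgeR adjusted p = 0.104, 0.0848 and 0.139). Some other counts moved by over 1.5 times. Decay factors called lower numbered 4 with upper-quartile factors, total counts or DESeq2 and 3 with summed pairs or an adjusted p of 0.01, and 3 to 8 when 1 library was left out. Neighbours called higher numbered 5 with DESeq2 or summed pairs and 3 at an adjusted p of 0.01, and 5 to 7 when 1 library was left out. snoRNP genes called higher numbered 1 at an adjusted p of 0.01, and 1 to 3 when 1 library was left out. With no count filter, SNHG3 (edgeR adjusted p = 0.000667), SNHG9 (5.03e-05) and SNHG26 (0.0297) passed and SNHG16 (0.144) did not. Signs turned among small values. SNHG11 was 0.02 with upper-quartile factors, 0.01 with total counts, 0.10 without siNC replicate 3 and 0.20 without siTRIM28 replicate 1. SNHG5 was -0.01 without siNC replicate 2 and -0.06 without siTRIM28 replicate 1, and SNHG3 was -0.0029 without siTRIM28 replicate 1. When 1 library was left out, the log2 fold change ranged from -0.25 to 0.20 for SNHG11, from -0.06 to 0.06 for SNHG5 and from -0.0029 to 0.38 for SNHG3. With the replicate block, for which the numbers give no pairing, 15 SNHG rows were higher and 4 lower. The causes of these changes were not tested, apart from the fewer libraries or the stricter threshold that some alternatives use by construction. Rows near 1 CPM rest on 13 to 35 counts per library, where counting noise limits what can be seen.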
